A study of Mus musculus with 8 samples.

Results

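The genes described here are 7 of the 31053 in the deposited tables: the metallothioneins Mt1, Mt2 and Mt3, clusterin (Clu), apolipoprotein D (Apod), alphaB-crystallin (Cryab) and cystatin C (Cst3). They were taken by name, and each was measured by its summed unique molecular identifiers (UMIs) in marker-defined cell types of the Control and the TBI library. The study profiled single cells of the dentate gyrus by droplet 3' sequencing. Nestin-GFP mice, in which the Nestin promoter drives GFP, had either a sham craniotomy (Control) or controlled cortical impact, a contusion of the cortex (TBI). The labels list 4 animals in each group, all male and 8 weeks old, while the study's methods give other numbers of pooled animals, and cells were taken on day 15 from the micro-dissected ipsilateral dentate gyrus. Cells of the animals in a group were pooled and sorted for GFP before 1 library was made per group, so cells could not be assigned to animals. Each difference between TBI and Control below therefore compares 2 libraries, with no replicate check and no test, and every interval is a 95% interval that covers counting error only.

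Metallothioneins are small cysteine-rich proteins that bind zinc and copper, buffer these metals in the cytoplasm and are induced by metals, glucocorticoids and oxidative stress. Mt1 and Mt2 are made in most tissues, whereas Mt3, also called growth inhibitory factor, is largely a protein of the brain. Clusterin is a secreted chaperone that travels with lipoproteins, apolipoprotein D is a lipocalin that carries small lipids, alphaB-crystallin is a small heat shock protein that holds unfolded proteins in solution, and cystatin C is a secreted inhibitor of cysteine cathepsins. In the brain, astrocytes and myelinating glia are known sources of several of them, and they are often read as signs of stress or injury.

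The Control library held 3086 barcodes and 24723113 UMIs, and the TBI library 5081 barcodes and 31543330 UMIs. The tables share 3 barcodes. After quality limits 3049 and 5036 cells remained, with a median of 6928 and 5663 UMIs. Levels are given as CPM, that is UMIs of the gene per 1000000 UMIs of the same cells, with the nuclear RNA Malat1 left out of the total. Of 9 cell types named from fixed markers, astrocyte-like cells were 743 Control and 709 TBI cells and oligodendrocytes 572 and 1105. Between 6 and 11 markers were checked per type, and 0 to 2 of them in each type were higher in another type. S100b was the exception among the 10 astrocyte markers, with its highest level in oligodendrocyte precursor cells (OPCs), and all 8 oligodendrocyte and all 8 microglia markers were highest in their own types. RG-like (radial-glia-like) and NSC (neural stem cell) are the study's names. The NSC markers used here were mainly division genes such as Mki67 and Top2a. Eomes (741 CPM) and Neurog2 (383 CPM) were highest in RG-like cells, and their markers Vim and Egfr were higher in other types. The 2 names therefore do not show that these cells are stem cells. Shares of cells per type are shares of cells that passed the GFP sort.

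The metallothionein genes lie side by side on chromosome 8 (GRCm38, GENCODE coordinates) in the order Mt4, Mt3, Mt2, Mt1, all on the forward strand. Mt3 spans chr8:94152607-94154146, Mt2 chr8:94172664-94173568 and Mt1 chr8:94179082-94180327, each with 3 exons. The gap is 18517 bases between Mt3 and Mt2 and 5513 bases between Mt2 and Mt1. Mt4, the neighbour at the far end that is known from squamous epithelia, had 0 UMIs in both libraries. The 300-base RefSeq promoter windows of the cluster are shown because the 3 genes were on in the same cells but at different ratios. The windows run from 250 bases before to 50 bases after the RefSeq start in GRCm38.p6, all on the forward strand, at chr8:94178839-94179138 for Mt1, chr8:94172368-94172667 for Mt2 and chr8:94152357-94152656 for Mt3. Capitals mark matches on either strand to the core of the metal response element, searched as TGCGCNC or TGCACNC, letters that cannot both match at 1 position of a strand.

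Mt1: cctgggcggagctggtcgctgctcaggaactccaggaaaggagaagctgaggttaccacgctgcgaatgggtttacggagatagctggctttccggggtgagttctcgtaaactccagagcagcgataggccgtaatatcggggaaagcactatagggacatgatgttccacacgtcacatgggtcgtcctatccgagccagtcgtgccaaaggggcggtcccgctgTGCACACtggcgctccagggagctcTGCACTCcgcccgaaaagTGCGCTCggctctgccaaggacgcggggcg
Mt2: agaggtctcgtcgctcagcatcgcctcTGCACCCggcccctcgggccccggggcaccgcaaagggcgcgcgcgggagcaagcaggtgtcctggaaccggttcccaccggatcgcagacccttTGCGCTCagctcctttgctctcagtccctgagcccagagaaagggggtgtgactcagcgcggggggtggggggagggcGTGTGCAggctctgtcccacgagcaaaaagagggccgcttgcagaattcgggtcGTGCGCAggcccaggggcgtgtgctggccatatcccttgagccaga
Mt3: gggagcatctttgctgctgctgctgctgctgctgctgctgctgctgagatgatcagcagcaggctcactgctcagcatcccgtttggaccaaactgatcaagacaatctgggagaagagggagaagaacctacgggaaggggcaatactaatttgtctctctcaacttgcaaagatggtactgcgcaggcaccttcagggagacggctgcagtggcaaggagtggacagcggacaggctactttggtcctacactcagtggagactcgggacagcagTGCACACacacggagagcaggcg

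The Mt1 window held 3 matches, the Mt2 window 4 and the Mt3 window 1. The Mt2 window ends at chr8:94172667 and its GENCODE start is chr8:94172664, so the windows cover unlike stretches around the GENCODE starts. Sequence of these genes beyond the windows was not searched. The windows of Cst3 (chr2:148875463-148875762, reverse strand) and Apod (chr16:31314759-31315058, reverse strand) held 0. Of 32851 promoter windows of the same length, 25.7% held at least 1 match, 1.97% at least 3 and 0.517% at least 4. These matches describe letters only, and binding was not measured.

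Mt1 was highest in astrocyte-like cells, at 6385 CPM [6292, 6479] in Control and 7092 CPM [6970, 7216] in TBI. With the libraries added, this was 10.6-fold above endothelial cells, the type next in order (6661 against 626 CPM). Endothelial cells gave 614 and 634 CPM, oligodendrocytes 531 and 514 CPM, microglia 512 and 450 CPM and RG-like cells 464 and 445 CPM. Mural cells, OPCs and NSCs followed, and neuron-like cells were lowest at 101 and 59.4 CPM. From microglia to NSCs each type overlapped with its neighbour in the order, so those ranks are not separate. With every cell thinned to 2000 UMIs, 93.3% of Control and 96.4% of TBI astrocyte-like cells held a Mt1 UMI, against 12.4% and 9.67% of neuron-like cells (median depth of the types before thinning 3707 and 2419 against 10885 and 8160 UMIs). The unthinned shares were 97.2% and 95.8% of astrocyte-like and 37.3% and 26.3% of neuron-like cells. The 131 Control and 292 TBI astrocyte-like cells under 2000 UMIs were left out of the thinned shares.

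Mt2 was also highest in astrocyte-like cells, at 1268 and 1396 CPM in Control and TBI, but its order of types was another. RG-like cells came next at 314 and 296 CPM and NSCs at 233 and 154 CPM, ahead of endothelial cells at 146 and 137 CPM. In the other 5 types Mt2 lay between 11.1 and 47.5 CPM, with all neighbours overlapping. Relative to astrocyte-like cells of the same library, Mt2 reached 18.4% and 11.03% in NSCs and 24.7% and 21.2% in RG-like cells. Mt1 reached 3.17% and 2.39% in NSCs and 7.27% and 6.27% in RG-like cells on the same measure. The summed level of 10 astrocyte markers in these cells was 4.24% and 3.61% of the astrocyte-like level in NSCs, and 6.71% and 6.47% in RG-like cells. Mt2 in both progenitor types thus stood above the share of the summed astrocyte markers found there, while Mt1 in NSCs stood below it. A single marker made up 623 of the 1115 CPM of this sum in Control NSCs and 514 of 937 CPM in TBI NSCs. In RG-like cells it was 818 of 1765 and 814 of 1679 CPM. The sum is therefore not a level of carried-over RNA, and carry-over was not tested.

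Mt3 was the most astrocyte-bound of the metallothioneins, at 3358 CPM [3291, 3426] in Control and 3131 CPM [3050, 3214] in TBI. The next type, OPCs, had 106 and 153 CPM and RG-like cells 158 and 109 CPM, and these overlapped. All other types lay at or under 85.3 CPM, down to 20.5 and 24.7 CPM in endothelial cells, where Mt1 was at its second highest. Astrocyte-like cells gave 87.4% of all Mt3 UMIs of the Control library and 83.5% of those of TBI, from 24.4% and 14.1% of the cells. The same cells gave 71.5% and 58.9% of Mt1 and 63.3% and 55.5% of Mt2.

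**Figure D1:**
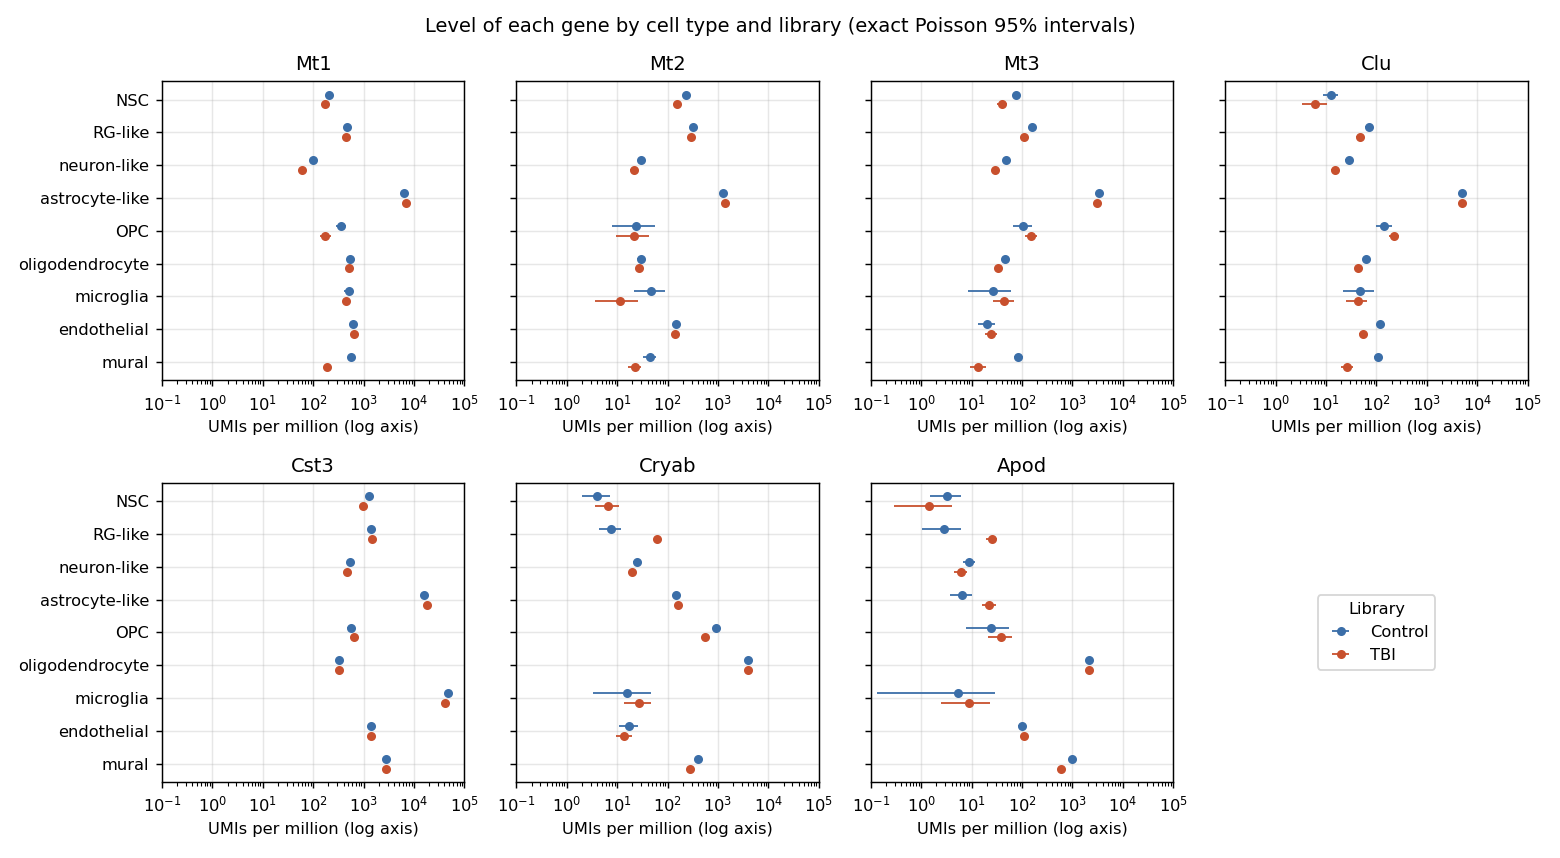
Level of each gene (CPM without Malat1, log axis) in the 9 named cell types, with 1 point per library and its 95% counting interval. Mt1, Mt2, Mt3 and Clu peak in astrocyte-like cells, Apod and Cryab in oligodendrocytes and Cst3 in microglia, and the Control and TBI points of each peak lie close together.

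The ratio of Mt1 to Mt2 differed between cell types by more than its counting error. It differed little between the libraries in RG-like, endothelial and astrocyte-like cells and in oligodendrocytes. In the other named types the libraries lay further apart. Mt1 made up 46.5% of the Mt1 and Mt2 UMIs in Control NSCs [43.6, 49.3] and 52.4% in TBI NSCs [48.6, 56.2]. In RG-like cells the share was 59.7% and 60.0%, and in neuron-like cells 77.1% and 73.6%. Endothelial cells (80.8% and 82.2%) and astrocyte-like cells (83.4% and 83.6%) came next. Mural cells had 92.8% and 89.6% and oligodendrocytes 94.75% [93.9, 95.5] and 95.1% [94.4, 95.7]. OPCs had 93.7% [85.8, 97.9] and 88.9% [79.3, 95.1], and microglia 91.5% [84.5, 96.0] and 97.6% [94.45, 99.2], both from few Mt2 UMIs. Added over both libraries, there were 0.947 Mt1 UMIs for each Mt2 UMI in NSCs, 1.49 in RG-like cells, 5.05 in astrocyte-like cells and 18.8 in oligodendrocytes. An unnamed cluster led by Eomes, a gene of intermediate progenitors, and nearest to RG-like cells, with 52 Control and 121 TBI cells, had 63.7% and 65.2%, between RG-like and neuron-like cells. One neuron-like cluster (led by Tac2, Mfap4 and Nhlh1, 319 cells) had 65.7% over both libraries, below the 75.5% of all neuron-like cells.

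**Figure D2:**
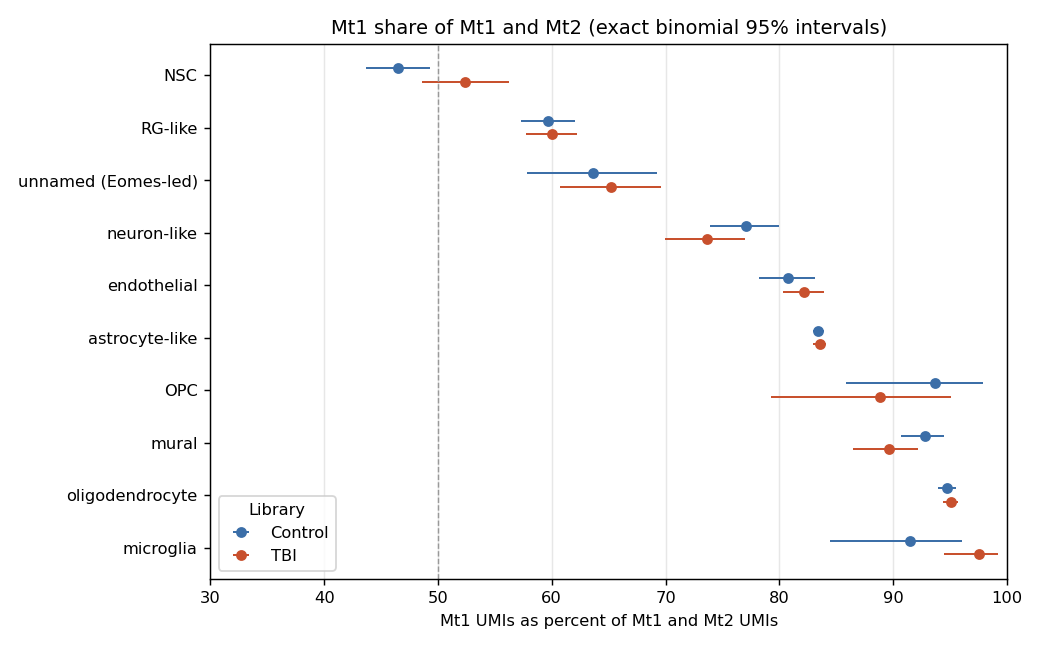
Percent of Mt1 among Mt1 and Mt2 UMIs by cell type and library, with exact binomial 95% intervals. The dashed line marks equal counts, near which NSCs lie, and oligodendrocytes lie at 94.75% and 95.1%. The libraries lie near each other in RG-like cells, astrocyte-like cells and oligodendrocytes.

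Clu, the secreted chaperone, had the widest spread among the genes that peaked in astrocyte-like cells. It reached 4972 CPM [4890, 5055] in Control and 4987 CPM [4884, 5090] in TBI, and was lowest in NSCs at 12.6 and 6.14 CPM, a range of 507.6-fold with the libraries added. OPCs were next at 145 and 224 CPM. Endothelial (119 and 55.2 CPM), RG-like (71.3 and 48.1 CPM), mural, oligodendrocyte and microglia levels overlapped from 1 type to the next. Astrocyte-like cells gave 92.5% of the Clu UMIs in Control and 90.1% in TBI. Thinned to 2000 UMIs, 89.9% and 91.8% of astrocyte-like cells held a Clu UMI against 2.62% and 2.19% of neuron-like cells.

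Cst3 was highest in microglia, at 46667 CPM [45699, 47650] in 38 Control cells and 41849 CPM [41253, 42452] in 89 TBI cells. Astrocyte-like cells followed at 16098 and 17708 CPM and mural cells at 2757 and 2745 CPM. It was found in every type, with its lowest level in oligodendrocytes at 322 and 320.5 CPM. Because astrocyte-like cells outnumbered microglia, they gave 63.2% of Control and 43.6% of TBI Cst3 UMIs, and microglia 12.3% and 25.5% from 1.25% and 1.77% of the cells. In Control, 1 microglial cell held 9.96% of the microglial Cst3 UMIs.

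Cryab and Apod formed the second pattern, with their peak in oligodendrocytes. Cryab had 3938 CPM [3886, 3990] in Control and 3900 CPM [3859, 3942] in TBI oligodendrocytes, and these gave 94.3% and 94.6% of its UMIs. OPCs had 916 and 545 CPM, mural cells 394 and 274 CPM and astrocyte-like cells 149 and 164 CPM. Within the mural class smooth muscle cells had 568 and 518 CPM, with a Cryab UMI in 90.6% and 85.5% of them. Smooth muscle is a known site of small heat shock proteins. Cryab (chr9:50751325-50756636, forward strand) overlaps Hspb2, a small heat shock gene on the opposite strand, and Mt2 overlaps the antisense gene Gm45774.

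Apod had 2145 CPM [2108, 2184] in Control and 2094 CPM [2064, 2125] in TBI oligodendrocytes, which gave 89.1% and 89.9% of its UMIs. Its level was far higher in a small fibroblast-like cluster of 12 Control and 18 TBI cells, led by Spp1, Dcn, Lum and Col1a1, at 26922 and 14712 CPM. All 30 cells of this cluster held Apod. That cluster was counted in the mural class, whose 963 and 600 CPM of Apod came mostly from it (1093 of 1175 UMIs in Control and 1114 of 1326 in TBI). Pericyte-like cells had 81.2 and 116 CPM. Apod was lowest in NSCs, with 9 UMIs in Control and 3 in TBI.

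Among the 6 astrocyte-like clusters, which were built without these genes, the levels varied far more than between the libraries. Added over the libraries, Mt1 ran from 1262 to 14429 CPM, Mt3 from 659 to 7204 CPM, Clu from 976 to 9321 CPM and Cst3 from 1954 to 33254 CPM. The highest Mt1 stood in a cluster led by Chchd10, Aldoc and Aldh1a1, at 13223 and 15969 CPM, with Mt3 at 7211 and 7196 CPM. Its cells had a median of 1624 UMIs, and Malat1 made up 0.151% of their UMIs. The highest Clu (9788 and 8707 CPM) and Cst3 (31668 and 35339 CPM) stood in a cluster led by Clu, Aldoc and Cxcl14, with a median of 1837 UMIs and a Malat1 share of 0.501%. The lowest levels of all 4 stood in a cluster led by Nwd1, Atp13a4 and Trim9, where Malat1 made up 21.1% of UMIs. There Mt1 was 1163 and 1490 CPM and Cst3 1856 and 2180 CPM. The remaining 3 clusters had a Malat1 share from 9.43% to 16.1% and Mt1 between 3273 and 8265 CPM. An unnamed cluster nearest to astrocyte-like cells (74 Control and 41 TBI cells, 15.3% Malat1 and 27.9% mitochondrial UMIs) had Mt1 at 881 and 916 CPM. Each of these genes thus had its highest level in 1 of the 2 clusters with almost no Malat1, and the part of the nuclear RNA share in the differences among clusters was not tested.

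A cluster led by Hopx, Fabp7 and Tnc, genes known from astrocyte-like stem cells as well as from astrocytes, had Mt1 at 4048 CPM in Control (60 cells) and 3273 CPM in TBI (36 cells). It was the cluster in which all of Mt1, Mt2, Mt3, Clu and Cst3 were lower in TBI, by log2 ratios of -0.31, -0.39, -0.51, -0.51 and -0.275, each with an interval below 0. None of the 5 reached 1.5-fold.

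**Figure D3:**
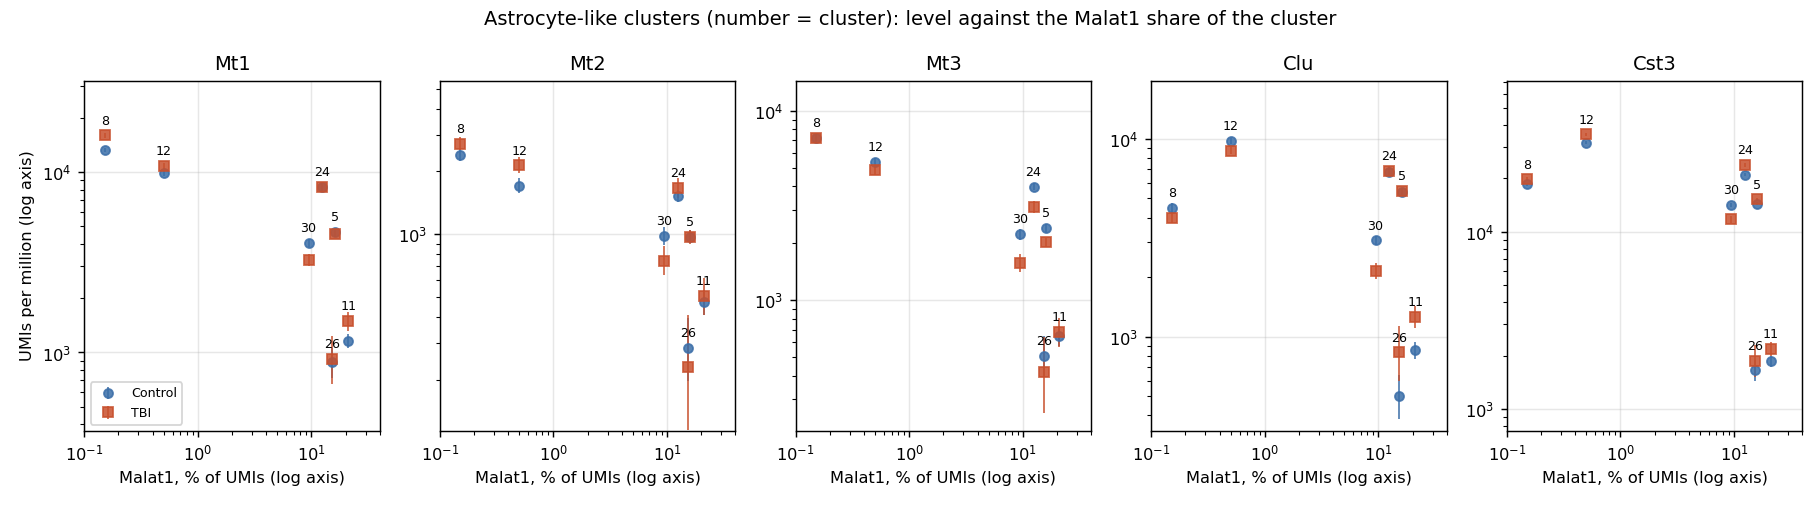
Levels of Mt1, Mt2, Mt3, Clu and Cst3 (CPM, log axis) against the Malat1 share of UMIs (log axis) in each astrocyte-like cluster and the unnamed cluster nearest to them, with 1 point per cluster and library, 95% counting intervals and cluster numbers. Each gene is highest at a Malat1 share of 0.151% or 0.501%, and lowest at 15.3% (the unnamed cluster) and 21.1%.

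Across single astrocyte-like cells thinned to 2000 UMIs, Mt1 and Mt3 went together, with a Spearman rho of 0.808 over 612 Control cells and 0.703 over 417 TBI cells. Mt1 and Mt2 had 0.654 and 0.614, and Mt1 and Clu 0.658 and 0.441. Clu and Cst3 had 0.792 and 0.697, and Mt1 and the astrocyte marker Aldoc 0.789 and 0.706. The cells of a library share its depth and ambient RNA, and the genes share the cytoplasmic fraction, so these values are descriptions.

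Oligodendrocyte clusters differed in the same way. In 5 of their 6 clusters Cryab lay between 2807 and 4388 CPM per library and Apod between 1208 and 3110 CPM. In the sixth (101 Control and 148 TBI cells, led by Sec14l5 and Aatk) Cryab was 341 and 402 CPM and Apod 253 and 301 CPM, with 17.8% Malat1 and 35.9% mitochondrial UMIs. Apod also varied among the other 5 clusters, from a cluster led by Serpinb1a and Spock3 (3049 and 3110 CPM) to another at 1389 and 1208 CPM, while Cryab there was 4155 and 4064 against 4052 and 3835 CPM.

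Between TBI and Control, none of the 7 genes differed by 1.5-fold in the one of the 9 named types where it was highest. The exception among sub-types was Apod in the 30 fibroblast-like cells, at 26922 and 14712 CPM (log2 ratio -0.87, and -0.68 without the highest cell of each library). Of 104 genes counted well enough in the fibroblast-like cells, 14.4% were higher and 13.5% lower in TBI by 1.5-fold. In astrocyte-like cells the log2 ratio of TBI to Control was 0.15 [0.12, 0.18] for Mt1, 0.14 [0.07, 0.21] for Mt2, -0.10 [-0.15, -0.05] for Mt3 and 0.00 [-0.03, 0.04] for Clu. Cst3 had 0.14 [0.12, 0.16] there and -0.16 [-0.19, -0.12] in microglia. In oligodendrocytes Cryab had -0.01 [-0.04, 0.01] and Apod -0.035 [-0.07, -0.00]. Of 6863 genes counted well enough in astrocyte-like cells, 2.54% differed by 1.5-fold in either direction, and 0 of the 6 members that passed the limits did. Apod did not pass there. In oligodendrocytes 1.75% of 8607 genes did, and 0 of 7 members, and in microglia 9.69% of 918 genes, and 0 of 2. Clu in oligodendrocytes (62.9 and 43.8 CPM, log2 ratio -0.52) passed 1.5-fold in 3 alternatives, at -0.61 without the called doublets, -0.775 without the mostly TBI cluster and -0.81 as a mean weighted by cluster. The median log2 ratio of all genes was -0.005 in astrocyte-like cells and -0.007 in oligodendrocytes, against 0.14 and -0.05 for the members that passed.

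The directions of the small Mt1, Clu and Cst3 differences in astrocyte-like cells depended on the cells, while Mt3 was lower in TBI at each depth given below. Mt3 was lower in TBI in 5 of 6 clusters, 4 of them with an interval below 0, and Cst3 was higher in 5 of 6, each with an interval above 0. Mt1 was higher in 4 of 6. Without the pair of clusters whose median was under 2000 UMIs, Mt1 had a log2 ratio of -0.08 and Mt3 -0.33. In cells over 5000 UMIs (244 Control and 93 TBI) Mt1 had -0.16 [-0.22, -0.10], Mt3 -0.405 and Clu -0.25. In cells of 2000 to 5000 UMIs (368 and 324) Mt1 had 0.14 [0.09, 0.195], Mt3 -0.17 and Clu 0.13 [0.07, 0.185]. In cells under 2000 UMIs Mt1 had 0.03 [-0.05, 0.11], Mt3 -0.20 and Clu -0.10. Cst3 had -0.05 [-0.085, -0.01] over 5000 UMIs, 0.11 [0.08, 0.15] at 2000 to 5000 UMIs and 0.16 [0.10, 0.21] under 2000 UMIs. Depth differed between the libraries in this type, at a median of 3707 UMIs in Control and 2419 in TBI, and its part in these ratios was not tested.

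**Figure D4:**
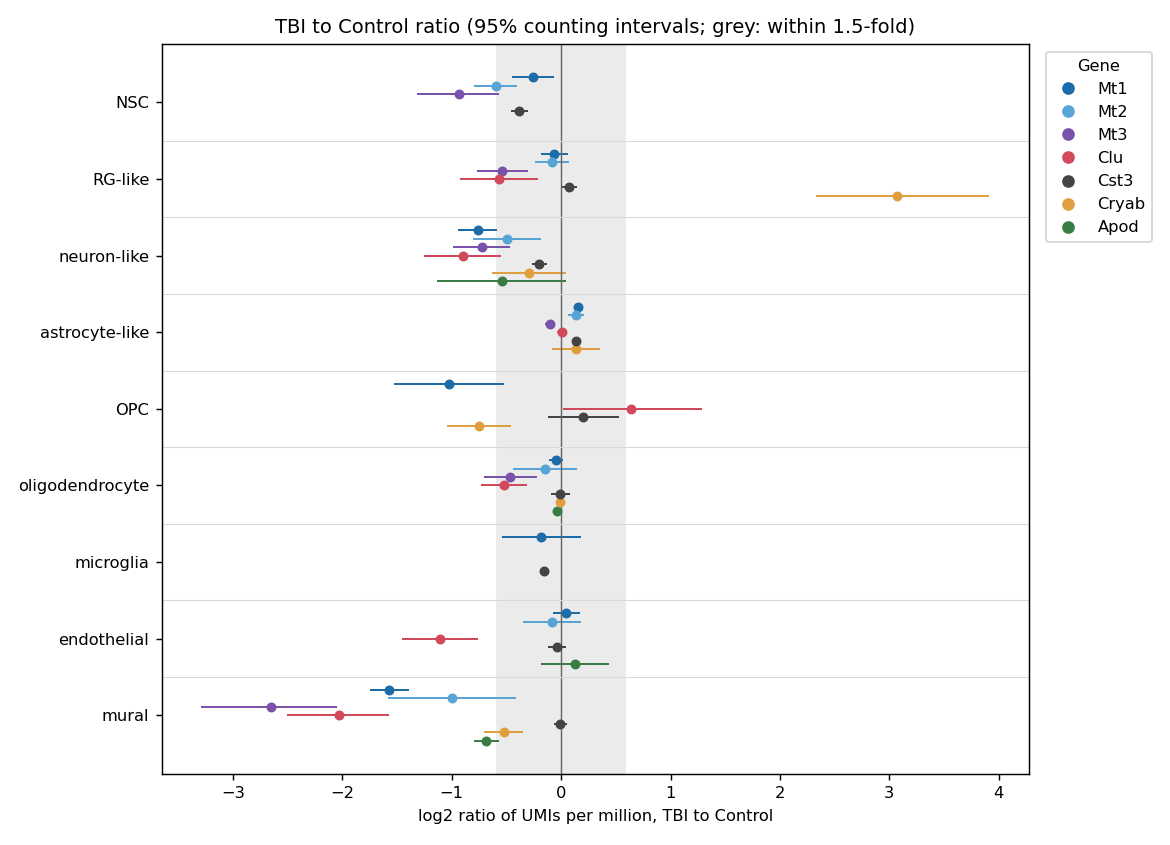
Log2 ratio of TBI to Control for each gene (colours) and cell type (rows) that passed the count limits, with exact 95% counting intervals and a grey band within 1.5-fold. Among these 9 types every gene lies inside the band in its type of highest level, and the points outside it are in other types, 5 of them in mural cells.

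Among the 9 named types, the ratios past 1.5-fold stood outside the type of the highest level. In NSCs 2 of the 4 members that passed were lower in TBI by that much, where 3.05% of 6658 genes differed by 1.5-fold. Mt2 had 233 CPM [215, 252] in Control and 154 CPM [138, 172] in TBI (log2 ratio -0.60 [-0.79, -0.40]), and Mt3 had 76.7 and 40.2 CPM (-0.93 [-1.31, -0.56]). Mt1 (202 and 170 CPM) and Cst3 (1272 and 976 CPM) had log2 ratios of -0.25 and -0.38, and Mt1 had -0.78 when cells were thinned to 2000 UMIs. In both NSC clusters Mt2, Mt3 and Cst3 were lower in TBI with an interval below 0. The summed astrocyte markers in NSCs were lower in TBI as well, at 1115 and 937 CPM (log2 ratio -0.25), 8 of 10 lower, and 1 of them at 0 in Control and 2 in TBI, and their part was not tested. Thinned to 2000 UMIs, Mt2 was found in 24.7% [18.2, 32.2] of Control and 21.6% [15.8, 28.4] of TBI NSCs, and the log2 ratio of its summed level was -0.40. In 4 other alternatives the ratio lay between -0.48 and -0.58, just short of 1.5-fold.

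In neuron-like cells all 7 members passed and 3 were lower in TBI by 1.5-fold, where 2.01% of 9594 genes differed by that much. Mt1 had 101 and 59.4 CPM (log2 ratio -0.76), Mt3 47.9 and 29.0 CPM (-0.725) and Clu 28.4 and 15.3 CPM (-0.90). Without the called doublets these ratios became -0.26, -0.25 and 0.31. At 2 median absolute deviations they were -0.44, -0.55 and -0.55, also within 1.5-fold. Mt1 was -0.46 at resolution 1.0, -0.48 with members kept among the variable genes and -0.51 with cells named one by one. Without integration Mt1 was -0.44 and Clu -0.575. Thinned to 2000 UMIs, Mt3 was -0.54 and Clu -0.16. The astrocyte markers were all 10 lower in TBI neuron-like cells, at 846 and 727 CPM, with a log2 ratio of -0.22, and oligodendrocyte markers were all 8 lower, at 402 and 248 CPM.

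In mural cells 7 members passed and 5 were lower in TBI by 1.5-fold, in a type where 11.5% of 5888 genes differed by that much and the median of all genes was 0.11. Mt1 had 568 CPM [527, 612] in Control and 192 CPM [174, 211] in TBI (log2 ratio -1.57), Mt2 44.3 and 22.2 CPM (-0.997), Mt3 85.3 and 13.6 CPM (-2.65), Clu 107 and 26.3 CPM (-2.03) and Apod 963 and 600 CPM (-0.68). The direction of Apod was not stable: its ratio was -0.35 without the highest cell of each library, 0.175 at cluster resolution 1.0, 1.32 with cells named one by one, 0.25 as a mean weighted by cluster and 0.515 in pericyte-like cells alone. Without the mural cluster that was mostly TBI, Mt2 had -0.23 and Apod -0.26, and Mt2 had -0.41 without the called doublets. Cst3, at 2757 and 2745 CPM, had a log2 ratio of -0.01, and Cryab -0.53. The 10 astrocyte markers were all lower in TBI mural cells, at 769 CPM in Control and 317 CPM in TBI (log2 ratio -1.28), or 2.92% and 1.22% of their level in astrocyte-like cells. Mt1 in mural cells was 8.90% and 2.70% of its astrocyte-like level. The 8 oligodendrocyte markers were all lower too, at 659 and 347 CPM. The part of these markers in the difference was not tested. In mural cells of 2000 to 5000 UMIs (169 Control and 551 TBI), Mt1 had a log2 ratio of -0.47 [-0.77, -0.16], within 1.5-fold. Mt2 had -0.06 there, Mt3 -1.54, Clu -0.88 and Apod -0.74. In mural cells over 5000 UMIs (83 and 78) the ratios in the same order were -1.71, -0.98, -2.76, -1.69 and 0.09. Mt2 (44 and 18 UMIs) and Mt3 (84 and 10 UMIs) were under that limit here as well. These deeper cells held 559 of the 693 Control Mt1 UMIs, and the part of depth was not tested.

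Within the mural class, pericyte-like cells (205 Control and 627 TBI) had Mt1 at 540.1 and 164 CPM (log2 ratio -1.72), Mt3 at 122 and 15.5 CPM (-2.98) and Clu at 82.7 and 30.4 CPM (-1.44), the 3 of 6 passing members that differed by 1.5-fold, where 5.37% of 4782 genes did. The UMIs were unevenly spread over cells. In 1 pericyte-like cluster, 85.5% of whose cells were TBI, 1 of 44 Control cells held 48.3% of the Mt1 UMIs. Without the highest cell of each library the ratios were -1.28 for Mt1, -2.38 for Mt3 and -1.63 for Clu, and without that cluster -0.86, -3.415 and -1.74, all still past 1.5-fold. Apod, at 0.515, went the other way. It was past 1.5-fold without that cluster (0.74) and as the mean of CPM per cell (0.78). Thinned to 2000 UMIs, the share of pericyte-like cells with a Mt1 UMI was 15.0% [10.1, 21.1] in Control and 14.2% [11.4, 17.4] in TBI. Smooth muscle cells had Mt1 at 614.5 and 320.3 CPM (log2 ratio -0.94), 1 of 3 passing members past 1.5-fold. Of 1497 genes in smooth muscle cells, 10.8% were higher and 5.21% lower by that much. Mt3 there was 35.0 CPM in Control and 0 UMIs in TBI, where 3 UMIs would be 9.24 CPM. Their astrocyte markers were 639.7 and 37.0 CPM.

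**Figure D5:**
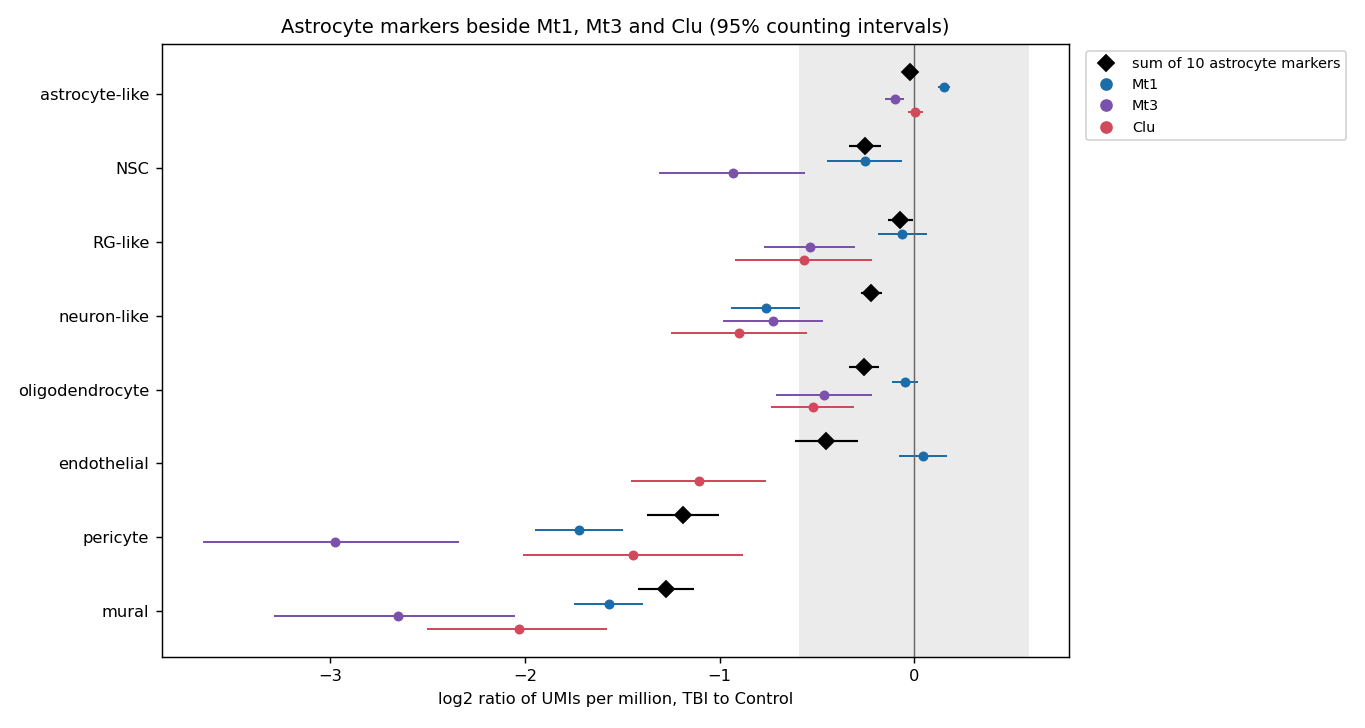
Log2 ratio of TBI to Control, on an axis from lower to higher in TBI, for the summed 10 astrocyte markers (diamonds) and for Mt1, Mt3 and Clu (circles, where they passed the count limits) in 8 cell types or sub-types, with 95% counting intervals and a grey band within 1.5-fold. In mural cells the marker sum (-1.28) and Mt1 (-1.57), Mt3 (-2.65) and Clu (-2.03) all lie below the band.

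In endothelial cells 1 of 5 passing members differed by 1.5-fold, where 2.42% of 5704 genes did. Clu had 119 CPM [101, 139] in Control and 55.2 CPM [46.0, 65.8] in TBI (log2 ratio -1.11), with 25.9% of the Control UMIs in 1 cell and a UMI in 8.56% and 6.42% of cells. Without the called doublets the ratio was -0.66. The level of Clu differed with depth. In endothelial cells over 5000 UMIs (121 Control and 94 TBI) Clu had 182 and 109 CPM (log2 ratio -0.75 [-1.18, -0.32]). In those of 2000 to 5000 UMIs (130 and 453) it had 16.7 and 34.1 CPM from 8 and 52 UMIs. The Control count was under the limit of 10, so no ratio or direction is given. Under 2000 UMIs it had 1 and 6 UMIs, and the part of depth was not tested. The summed astrocyte markers were lower in TBI endothelial cells too, at 428 and 313 CPM (log2 ratio -0.45), 5 of 10 lower and 5 higher, and their part was not tested. Mt1 (log2 ratio 0.045), Mt2 (-0.09), Apod (0.13) and Cst3 (-0.04) lay near 0 in these cells. The intervals of Mt1 and Mt2 in endothelial cells held 0.

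OPCs were few, at 27 Control and 56 TBI cells, and 28.5% of 1126 genes differed by 1.5-fold in them. Of 4 members that passed, Clu was higher in TBI (145 and 224 CPM, log2 ratio 0.63 [0.015, 1.29], and 0.07 with cells named one by one) and Mt1 (357 and 175 CPM, -1.03) and Cryab (916 and 545 CPM, -0.75) were lower. These calls were lost in several alternatives. Mt1 had -0.12 thinned to 2000 UMIs, -0.52 as the mean of CPM per cell and -0.56 with cells named one by one, and Cryab had -0.46 thinned and -0.545 as the mean of CPM per cell. In Control 1 cell held 31.1% of the Mt1 UMIs. In OPCs of 2000 to 5000 UMIs (12 Control and 15 TBI) Cryab was higher in TBI, at 478 and 1203 CPM (log2 ratio 1.33 [0.51, 2.23]). In OPCs over 5000 UMIs (14 and 33) Cryab was lower, at 970 and 451 CPM (-1.11 [-1.44, -0.77]). The part of depth was not tested. Oligodendrocyte markers summed to 24668 CPM in Control and 5601 CPM in TBI OPCs, 7 of 8 lower in TBI, and their part in the Cryab difference was not tested.

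In RG-like cells 1 of 6 passing members differed by 1.5-fold, where 2.54% of 6890 genes did. Cryab had 16 UMIs in Control and 159 in TBI, or 7.45 and 62.7 CPM (log2 ratio 3.07 [2.33, 3.91]). Of the TBI UMIs 41.5% lay in 1 cell, and the log2 ratio was 2.49 without the highest cell of each library and 0.82 without the called doublets. Clu (71.3 and 48.1 CPM, log2 ratio -0.57) and Mt3 (158 and 109 CPM, -0.54) lay just short of 1.5-fold. Clu passed it in 5 alternatives (-0.74 to -1.87) and Mt3 in 3 (-0.685 to -1.22), and Mt1, at -0.06, became -0.695 at cluster resolution 1.0 and -0.68 with cells named one by one. Apod (6 and 65 UMIs) did not pass the limits. All 8 oligodendrocyte markers were higher in TBI RG-like cells, summed to 148 and 1047 CPM (log2 ratio 2.82), and so was Ptgds, a lipocalin of oligodendrocytes (57.8 and 319.7 CPM).

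The genes around these pathways were taken from lists of the same families, and in astrocyte-like cells few of them differed by 1.5-fold apart from the immediate early genes. Of all genes in astrocyte-like cells, 0.874% were higher and 1.66% lower by 1.5-fold. Of 20 zinc genes 12 passed and 0 differed by 1.5-fold, with a median log2 ratio of -0.06. The highest was the zinc importer Slc39a12 at 281.5 and 276 CPM, and the exporter Slc30a1, a known target of the metal-responsive factor Mtf1, had 38.2 and 34.8 CPM. Of 11 copper and iron genes 8 passed and 1 was higher, transferrin (Trf) at 21.25 and 40.3 CPM. Trf is also an oligodendrocyte gene (3607 and 3395 CPM there). Oligodendrocyte markers summed to 302 and 445 CPM in astrocyte-like cells, and their part was not tested. Ferritin heavy chain Fth1 had 2103 and 2624 CPM (log2 ratio 0.32). Of 18 oxidative stress genes 15 passed and 0 differed, and the peroxidase Prdx6 had 1719 and 1976 CPM. Of 10 apolipoprotein, lipocalin and receptor genes 6 passed, 1 of them higher (Ptgds, 95.6 and 160.2 CPM), with Apoe at 24988 and 28802 CPM. Ptgds had 20482 and 25965 CPM in oligodendrocytes, and the part of oligodendrocyte RNA in its ratio was not tested. Of 12 small heat shock and chaperone genes 6 passed and 0 differed. Of 10 reactive gliosis genes 3 passed and 0 differed, with Gfap, the astrocyte filament gene, at 342 and 357 CPM and Lcn2 at 0 UMIs in both libraries. Of 15 immediate early genes, which also answer to cell dissociation, 10 passed and 3 were lower in TBI, with a median of -0.41. Fos among them had 166 and 103 CPM (log2 ratio -0.69). Of 9 glucocorticoid response genes 2 passed and 0 differed.

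Around Cryab and Apod in oligodendrocytes, 8 of 12 small heat shock and chaperone genes passed and 1 was higher in TBI, Hspa1a at 9.51 and 17.9 CPM, while Hsp90aa1 had 2181 and 2717 CPM (log2 ratio 0.32). Of 10 apolipoprotein, lipocalin and receptor genes 4 passed and 1 was higher, Apoe at 2577 and 3931 CPM (log2 ratio 0.61), and Ptgds had 20482 and 25965 CPM (0.34). Of all genes in oligodendrocytes, 0.941% were higher and 0.813% lower by 1.5-fold. Of 10 reactive gliosis genes 4 passed and 3 were higher, with a median of 1.81. These were the complement gene C4b at 12.0 and 115 CPM (log2 ratio 3.265 [2.91, 3.64]), the serpin Serpina3n at 2.47 and 16.4 CPM (2.73) and Vim at 12.0 and 22.2 CPM (0.89). C4b was among the top genes of the mostly TBI oligodendrocyte cluster (31 Control and 212 TBI cells, 87.2% TBI). The part of that cluster in these 3 ratios was not tested. Cryab and Apod in the same cells stood at log2 ratios of -0.01 and -0.035. Around Cst3 in microglia, 7 of 11 cathepsin and cystatin genes passed and 0 differed, with Ctss at 3855 and 3808 CPM and a median log2 ratio of -0.02. Apoe in microglia had 665.5 and 2160 CPM (1.70), and Trem2, the other gene of its list that passed there, had a log2 ratio of 0.13. Astrocyte-like cells had Apoe at 24988 and 28802 CPM. The 10 astrocyte markers summed to 238 and 381 CPM in microglia, 9 of them higher in TBI, and their part was not tested. In mural cells the chaperone list had 3 of 10 passing members higher, with Hspa1a at 598.5 and 1450 CPM (1.28), and the immediate early list had 6 higher and 2 lower of 15. Of all genes there, 6.74% were higher and 4.81% lower. Hspa1a was among the top genes of the mostly TBI mural cluster (44 Control and 259 TBI cells), whose part was not tested. The summed chaperone and immediate early lists had log2 ratios of 0.56 and 1.07 in pericyte-like cells, against 0.12 and -0.23 in smooth muscle cells.

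The genes most like each member were sought over 22 points, that is 11 cell types or sub-types in each library, among 5884 genes, with levels as log2(CPM + 10). Mt1 was most like Fam107a (Pearson r 0.906), Aqp4 (0.860) and 2900052N01Rik (0.859). Mt2 was most like Sox9 (0.888), Gja1 (0.871) and Fgd6 (0.845), and Mt3 most like the GABA transporter gene Slc6a11 (0.947), Acsbg1 (0.945) and Acsl6 (0.937). Clu was most like Aldoc (0.968), Fgfr3 (0.946) and Pla2g7 (0.935). Aqp4, Gja1, Aldoc and Fgfr3 were among the markers that named astrocyte-like cells, so these matches follow in part from the naming. Apod was most like Ctsk (0.919), Ptgds (0.898) and Kif13b (0.892), Cryab most like Aatk (0.912), Degs1 (0.888) and Dst (0.872), and Cst3 most like Mertk (0.902), Dapp1 (0.898) and Gna13 (0.883). Among the members, Clu and Mt3 had 0.873, Clu and Mt1 0.823, Mt1 and Mt2 0.679 and Apod and Mt1 0.025. The points of a library share its depth and ambient RNA, and these values are descriptions over the points named.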

How the data were processed

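Single cells were sorted for Nestin-GFP from pooled dentate gyri and sequenced as 1 Control and 1 TBI library (10x 3' v3). The authors aligned reads to GRCm38 and made the deposited UMI counts per gene and cell with Cell Ranger 3.0.2. Each table's condition was checked against the study's listed barcodes: 356 of 356 control and 320 of 320 TBI barcodes were in their own table and 0 in the other. From these counts, cells with at least 200 genes and within 3 median absolute deviations were kept, integrated and clustered without the 7 genes (Seurat 5.3.0 in R 4.3.3; 2000 variable genes, 20 dimensions, resolution 3.0), and the 40 clusters were named from fixed markers. Doublets were called with Scrublet (scanpy 1.11.5), 37 in Control and 108 in TBI, and were kept. They were left out in an alternative. UMIs were summed per type and library and divided by the total without Malat1, with exact Poisson, binomial and conditional binomial 95% intervals. A ratio was counted as past 1.5-fold only where a gene had 100 or more UMIs over both libraries and 10 or more in each of them. With 1 library per condition no test across samples could be made. The genes named as similar were those with the highest Pearson r. Members, lists and markers were chosen with earlier results of these data known, and the scripts were tested on simulated data. Cell types were rebuilt here, so names may differ from the study's.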

Additional observations from a re-analysis of the deposited data

Results flagged for a closer look

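Clu and Cryab had log2 ratios of TBI to Control past 1.5-fold in opposite directions in different cell types. For Clu the ratio was 0.63 in OPCs, against -0.90 in neuron-like cells, -1.11 in endothelial cells and -2.03 in mural cells. For Cryab it was 3.07 in RG-like cells, against -0.75 in OPCs. With 1 library per condition these differences between cell types were not tested. The OPC ratios rest on 27 Control and 56 TBI cells. Clu in OPCs was 0.07 with cells named one by one, and Cryab in OPCs was within 1.5-fold when thinned to 2000 UMIs (-0.46) and as the mean of CPM per cell (-0.545). The direction of Cryab in OPCs differed with depth, at 1.33 in cells of 2000 to 5000 UMIs and -1.11 in cells over 5000 UMIs. Without the called doublets Clu in neuron-like cells was 0.31 and Cryab in RG-like cells 0.82. Clu in neuron-like cells was -0.16 when thinned to 2000 UMIs. In endothelial cells of 2000 to 5000 UMIs Clu had 16.7 and 34.1 CPM from 8 and 52 UMIs, under the limit of 10 in Control.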

How the results depend on the processing

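No paired analysis was possible because each condition was 1 library, and for the same reason no replicate could be left out. The one of the 9 named types with the highest level of each of the 7 genes was the same in all 77 pairs of gene and alternative. In those types 104 alternative log2 ratios lay between -0.33 and 0.27, and 0 reached 1.5-fold. Values that moved beyond the counting interval are given by alternative. With the mean of CPM per cell, Mt1 was 0.27, Mt2 0.255, Mt3 0.054 and Clu 0.095 in astrocyte-like cells, Apod 0.017 and Cryab 0.033 in oligodendrocytes and Cst3 -0.30 in microglia. Without the astrocyte-like clusters under a median of 2000 UMIs, chosen after seeing the data, Mt1 was -0.083, Mt2 -0.061, Mt3 -0.33 and Clu 0.053. Thinned to 2000 UMIs, Mt3 was -0.15, Clu -0.060, Apod 0.072 and Cryab 0.058. Mt1 was 0.19 without integration and Mt3 -0.16 at 2 median absolute deviations. With mitochondrial UMIs at most 10%, Clu was 0.089 and Cst3 in microglia -0.095. With a total that also left out mitochondrial, ribosomal protein and hemoglobin genes, Apod was -0.068, Cryab -0.047 and Cst3 -0.11. Alternatives added after seeing the data gave Cst3 -0.105 without the cell highest in it, Cryab -0.041 without the mostly TBI cluster, and Apod 0.060 and Cryab 0.078 as means weighted by cluster. Among the ratios past 1.5-fold, signs turned for Clu in neuron-like cells without called doublets (0.31). They also turned for Apod in mural cells at resolution 1.0 (0.175), with cells named one by one (1.32) and with the mean weighted by cluster (0.25). Smaller ratios turned sign too, and in its type of highest level each gene but Cst3 had values of both signs. Of 18 ratios past 1.5-fold, 31 of 256 alternative values were within it, and of the other ratios 20 of 519 were past it. Among these, at resolution 1.0 RG-like cells had Mt1 -0.695, Mt3 -1.22, Clu -1.54 and Cst3 -0.67. Genes past 1.5-fold numbered 174 in astrocyte-like cells, 151 in oligodendrocytes and 680 in mural cells. They numbered 759, 638 and 1741 at limits of 30 UMIs over both libraries and 3 per library, 425 and 316 for the first pair with the mean of CPM per cell, and 278 in mural cells thinned to 2000 UMIs. The cause of these changes was not tested. Depth limits Mt2, Apod and Clu outside their main types, where many counts were under 100 UMIs.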
